A study of Mus musculus with 12 samples.

Results

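The CCT chaperonin, also called TRiC, is built from 8 related subunits, and the 8 genes described here (Tcp1, Cct2, Cct3, Cct4, Cct5, Cct6a, Cct7 and Cct8) encode them. They were taken by gene name from a table with 1 line per sequenced RNA molecule. Kept were mRNA reads of nuclear-encoded genes whose tail estimate had the quality tag PASS. All 8 were found, out of 14042 genes with a kept read, and together they held 19163 of 4274320 kept reads. The cells were P19, a mouse embryonal carcinoma line that behaves as a pluripotent stem cell. They were sampled undifferentiated (D0) or after 2 (D2), 4 (D4) or 6 (D6) days in NDiff 227 medium with 500 nM retinoic acid, which drives this line toward neurons. Each day had 3 biological replicates, giving 12 libraries, and all groups were the same unmodified line. D0 cells grew in serum medium, so the retinoic acid, the medium and the time in culture changed together, and each of the 13 sequencing runs held 1 day, so that run and day cannot be told apart. RNA was read directly on nanopores, so that each read reports both a transcript and its poly(A) tail.

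CCT is a double-ring, ATP-driven machine that encloses newly made proteins and lets them fold. Actin and tubulin are its classic substrates, and each ring carries every subunit once, in a fixed order. Prefoldin hands substrates to it, and phosducin-like proteins assist it. Because the subunits work together in a shared complex, their mRNAs are of interest as a set.

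Kept reads per library ranged from 120326 (D2 replicate 1) to 613756 (D0 replicate 2). The labels were checked against markers of the expected cell types. Pou5f1, a pluripotency factor, averaged 1706 CPM (reads scaled to a common library size, here with trimmed mean of M-values factors) at D0 and 0.902 CPM at D6. Map2, a protein of neuronal microtubules, averaged 8.17 CPM at D0 and 250.004 CPM at D6. All 5 neuronal markers were called higher at D6, and their summed level was 453 to 499.6 CPM at D0, 109.8 to 201 at D2, 853 to 1097 at D4 and 2060 to 2219 at D6. The 5 neural progenitor markers moved over the same days as the CCT genes: 4 were called higher at D2 and all 5 at D4 and at D6. Their summed level was 422 to 476 CPM at D0, 706 to 907 at D2, 1929 to 2248 at D4 and 2266 to 2655 at D6. Vim, an intermediate filament protein, averaged 377 CPM at D0 and 1787 at D6, and Fabp7, a fatty acid-binding protein, 3.42 and 557 CPM. The part of this change of cell type in the CCT values was not tested. Dppa5a and Zfp42, 2 of the 6 pluripotency markers, had no read on any day. The summed level of 5 endoderm markers stayed at or below 7.84 CPM in every library, with Gata4, Sox17 and Afp at 0 reads. The 4 glial markers summed to at most 4.01 CPM, with Olig1 and Aqp4 at 0 reads, and the 3 muscle markers to at most 2.1 CPM, with Myod1 and Myog at 0 reads.

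The 8 mRNAs were abundant, and 6 of them fell between D0 and D6. Together they averaged 5475 ± 475 CPM (SD, n = 3) in D0 cells, then 4365 ± 304 (D2), 4172 ± 258 (D4) and 3739 ± 189 (D6). At D0 every subunit lay between the 96.9th and the 98.3rd percentile of the 9309 genes tested. In the limma-voom fit across those genes, 6 of 8 members were lower at D6 than at D0 at a Benjamini-Hochberg adjusted p of at most 0.05 and none was higher, where 18.2% of all genes tested were called lower and 19.4% higher. At D4 6 of 8 were lower and 0 higher, against 12.7% and 12.6% of all genes, and at D2 4 of 8 were lower and 0 higher, against 6.32% and 4.48%. The log2 fold change lay below 0 for 7 of 8 members at D2, 8 at D4 and 8 at D6, as it did for 53.6%, 50.1% and 49.1% of all genes. Over the 8 members its median was -0.39 (D2), -0.39 (D4) and -0.60 (D6), beside -0.05, -0.00171 and 0.02 over all genes tested. All of these comparisons use the same 3 D0 libraries.

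**Figure D1:**
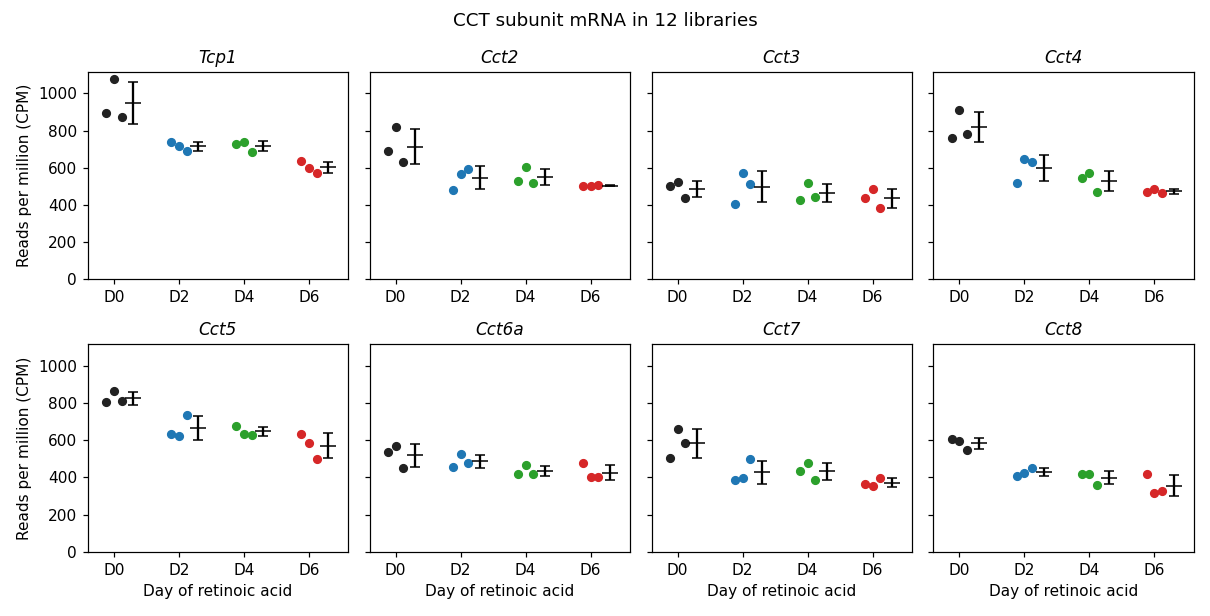
Level (CPM, y axis) of each subunit mRNA by day of retinoic acid (x axis). Each point is 1 library and the bar beside it is the mean with its SD (n = 3). Tcp1, Cct2, Cct4, Cct5, Cct7 and Cct8 sit lower in all 3 D6 libraries than in any D0 library, while the Cct3 and Cct6a points overlap.

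Cct4, the delta subunit, had the largest fold change at D6. It read 761, 909.6 and 781 CPM in the D0 libraries, 517, 646 and 632 at D2, 547, 569.6 and 471 at D4, and 468, 487 and 463 at D6. No later library reached the lowest D0 library. Its log2 fold change at D6 was -0.79 (SE 0.12, limma adjusted p = 7.4e-08), a change in level of -42.1% with a 95% interval from -50.6% to -32.1%. At D2 the value was already -0.43 (limma adjusted p = 0.0139).

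Cct8, the theta subunit, came next. It read 607, 597 and 550.0 CPM at D0, 408, 425 and 451 at D2, 416, 419.6 and 359 at D4, and 419, 317 and 328 at D6. The highest later library was well below the lowest D0 library. The log2 fold change of Cct8 at D6 was -0.75 (SE 0.12, limma adjusted p = 1.2e-06).

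Tcp1, the alpha subunit for which the complex was first named, was the most abundant member in reads on all 4 days. It read 893, 1076 and 871 CPM at D0, 737, 718 and 690.3 at D2, 726, 738 and 686 at D4, and 635, 599.8 and 574 at D6. The D2 and D4 libraries overlapped each other and lay between the D0 and the D6 libraries. From D0 to D6 it fell by 0.65 on the log2 scale (SE 0.11, limma adjusted p = 1.1e-06).

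Cct7, the eta subunit, read 502, 659 and 586 CPM at D0, 384, 397 and 499 at D2, 432, 478 and 387 at D4, and 367, 352 and 398 at D6. D2 replicate 3 came close to the lowest D0 library, and the D6 libraries were clear of D0. From D0 to D6 Cct7 fell by 0.65 on the log2 scale (SE 0.13, limma adjusted p = 2.96e-05).

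Cct5, the epsilon subunit, and Cct2, the beta subunit, had smaller fold changes. Cct5 read 803, 865 and 808 CPM at D0, 635, 622 and 738 at D2, 677, 635 and 631 at D4, and 631, 583 and 498 at D6. The Cct5 log2 fold change at D6 was -0.54 (SE 0.11, limma adjusted p = 5.5e-05). Cct2 read 692, 817 and 632 CPM at D0, 478, 566 and 595 at D2, 530.4, 602 and 519 at D4, and 501, 503 and 509 at D6. For both genes every later library was below every D0 library. The Cct2 log2 fold change at D6 was -0.50 (SE 0.12, limma adjusted p = 4.5e-04). At D2 neither passed the threshold (limma adjusted p = 0.081 for Cct5 and 0.0538 for Cct2). Cct2 passed there with the replicate block (limma adjusted p = 0.0447), and over all alternatives to its D2 value the adjusted p ran from 0.0163 to 0.351. For Cct5 it ran from 0.0124 to 0.481, and Cct5 passed with a mapping quality of at least 10, with 1 contig per gene, with any quality tag and without D2 replicate 3.

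Cct3, the gamma subunit, and Cct6a, the zeta subunit, did not pass the test on any day. The sign of the Cct3 values depended on the scaling or the reads used, with library totals giving 0.08 at D6. Cct3 read 500.1, 522 and 439 CPM at D0, 408, 574 and 515 at D2, 428, 518 and 441 at D4, and 438, 484 and 384 at D6. The 4 days overlapped. Its log2 fold change at D6 was -0.16 (SE 0.13, limma adjusted p = 0.34), with a 95% interval from -0.41 to 0.09. Cct6a read 538, 567 and 449 CPM at D0, 455, 526 and 478 at D2, 420.3, 466 and 417 at D4, and 475, 401 and 403 at D6. D6 replicate 1 lay above the lowest D0 library. Its log2 fold change at D6 was -0.29 (SE 0.12, limma adjusted p = 0.055), with a 95% interval from -0.54 to -0.04. The Cct6a value was below 0 at D4 and D6 under every alternative, and its sign changed only at D2, for example to 0.12 with library totals. At D6 Cct6a passed in 7 alternatives, among them a mapping quality of at least 10 (limma adjusted p = 0.0068), any quality tag (0.00725) and the fit without D0 replicate 3 (0.0128), and at D4 it passed with that mapping quality (0.0075).

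The libraries of D6 and D0 did not overlap for 6 of 8 members, all lower at D6, where 22.9% of the genes tested had every D6 library below every D0 library. The same 6 members did not overlap D0 at D2 or at D4, against 18.3% and 20% of genes. Between successive later days no member passed the test: 0 of 8 from D2 to D4 and 0 of 8 from D4 to D6 by limma-voom. Tcp1 from D4 to D6 had the lowest adjusted p, with a log2 fold change of -0.25 (SE 0.12, limma adjusted p = 0.18). It passed when reads of any quality tag were used (limma adjusted p = 0.0442). In all 3 pairs of same-numbered D4 and D6 libraries, 4 members (Tcp1, Cct2, Cct4 and Cct5) were lower at D6, as were 19.2% of the genes tested. The deviations of those pairs from their day means correlated at 0.15 to 0.25, and with the replicate number as a block 0 of 8 members passed by limma from D4 to D6. Over all genes 1.02% were called lower and 2.01% higher from D2 to D4, and 3.92% and 4.44% from D4 to D6.

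**Figure D2:**
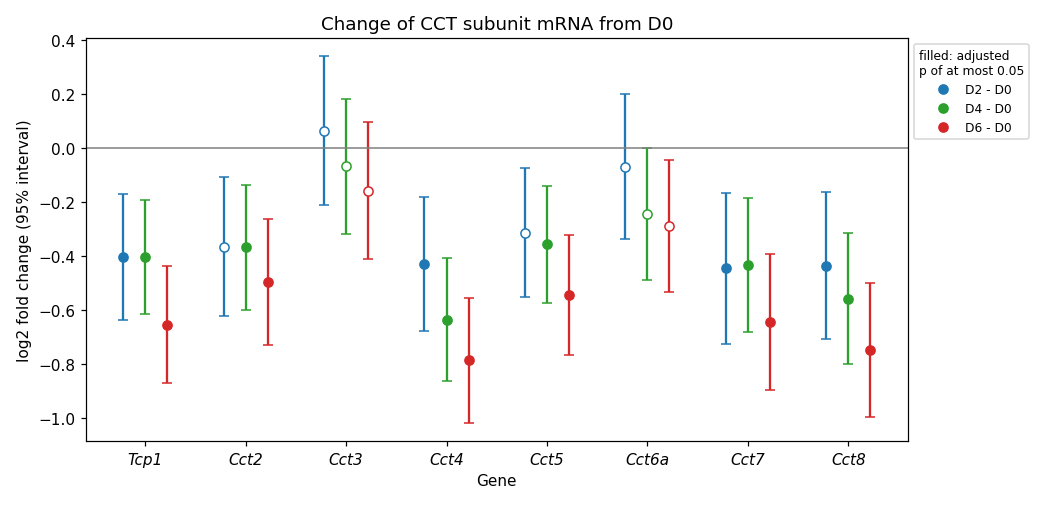
Log2 fold change from D0 (y axis) of each subunit mRNA (x axis) at D2, D4 and D6, with 95% intervals from limma-voom. Filled points have an adjusted p of at most 0.05; the D6 values run from -0.79 for Cct4 to -0.16 for Cct3, whose interval reaches above 0.

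The D2 calls depended on the scaling and on single libraries. No member was called lower at D2 with library totals or upper quartile factors in place of the trimmed mean factors. Leaving out D0 replicate 2 or D2 replicate 2 left 1 member called there, and leaving out D2 replicate 3 gave 6. At D6 the count stayed at 6 or 7 under every alternative, the seventh being Cct6a. The D6 values were smaller with library totals, where the log2 fold change was -0.42 for Tcp1, -0.26 for Cct2, -0.31 for Cct5 and -0.42 for Cct7. At D4 3 members were called after thinning every library to the smallest, and 4 with upper quartile factors.

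The members were ordered by level on each day. Per molecule sequenced, Tcp1 led at D0 (947 ± 113 CPM, SD, n = 3), followed by Cct5 (826 ± 34.3), Cct4 (817 ± 80.7), Cct2 (714 ± 94.4), Cct8 (584 ± 30.2), Cct7 (583 ± 78.6), Cct6a (518 ± 61.3) and Cct3 (487 ± 43.3). Among these neighbours only Tcp1 and Cct5, and Cct2 and Cct8, had libraries that did not overlap. At D6 Tcp1 and Cct5 still led, with 603 ± 30.5 and 571 ± 67.3 CPM, and Cct8 was last with 355 ± 56.4. Divided by the annotated length of the contig with most reads, Cct5 led on all 4 days, with 446 CPM per kb at D0 and 308 at D6. That order rests on annotated lengths, and many molecules were shorter. The main Tcp1 3′ end site, with 84.6% of contig reads, lay at base 1936 of 2446. That of Cct5, with 78.9%, lay at base 1770 of 1853. Each read is 1 molecule, so the order without division is the one per molecule.

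The shares of the subunits in the CCT reads, which do not depend on the scaling of libraries, differed between days by at most a few points. Cct3 made up 8.9% ± 0.47 of the reads of the 8 genes at D0 and 11.6% ± 1.18 at D6 (SD, n = 3), and the libraries of the 2 days did not overlap. Cct6a went from 9.45% ± 0.688 to 11.4% ± 0.665, again without overlap. Cct4 went the other way, from 14.9% ± 0.486 to 12.7% ± 0.663, and Tcp1 from 17.3% ± 0.555 to 16.1% ± 0.0222. Each of these 4 differences reached the smallest p that an exact two-sided permutation test of 3 against 3 libraries allows, 0.1, which is 0.2 after adjustment over the 8 genes. The other 4 subunits gave exact permutation p-values from 0.2 to 0.9. With only reads of mapping quality 10 or more, the Tcp1 difference was 2.05 points in the other direction.

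**Figure D3:**
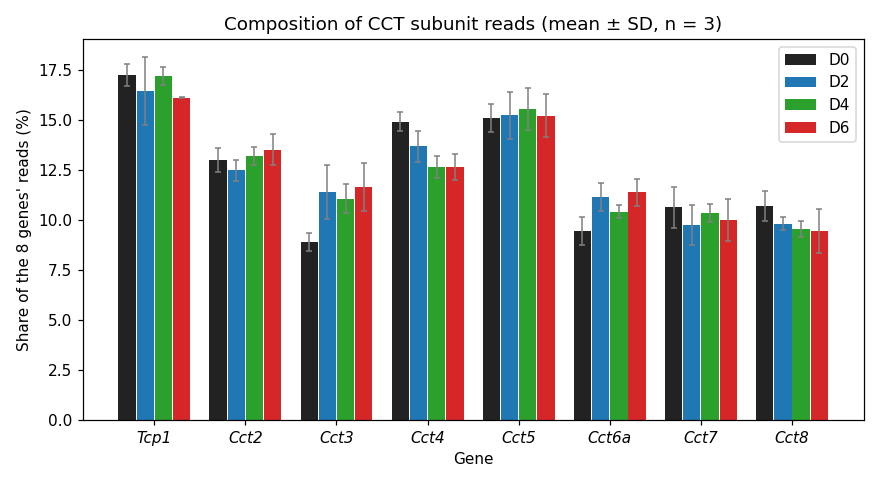
Share of the 8 genes' reads that came from each subunit (y axis, percent) by gene (x axis) and day; bars are means and lines the SD (n = 3). Cct3 and Cct6a take larger shares at D6 than at D0, and Cct4 a smaller one, while Cct5 stays near 15%.

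The Cct3 and Tcp1 values have a limit that the other 6 lack. In these 2 genes, 48.6% and 37.9% of reads had a mapping quality below 10, against at most 0.793% in each of the others. On the main contig of Cct3 the share was 0.106% for reads that began within 50 nt of the most common start and 91.02% for the rest; on that of Tcp1 it was 0.127% and 67.4%. The share of Cct3 reads with a mapping quality below 10 averaged 61.2% at D0 and 42.3% at D6. When only reads with a mapping quality of at least 10 were used, the Cct3 log2 fold change was 0.59 at D4 (limma adjusted p = 0.0098) and 0.25 at D6 (adjusted p = 0.297), and Tcp1 gave 0.05 at D4 (adjusted p = 0.78) while its D6 value was -0.33 (adjusted p = 0.0336) in place of -0.65. The D2 call of Tcp1 (-0.40, limma adjusted p = 0.0144) was also lost with that limit (-0.15, adjusted p = 0.594). With 1 contig per gene Tcp1 did not pass at D2 (-0.30, limma adjusted p = 0.094) or at D4 (-0.20, 0.149), and over all alternatives its adjusted p at D2 ran from 0.0045 to 0.689.

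The completeness of reads varied between libraries; the test for reaching the 5′ end, chosen after the values had been seen, was a start within 50 nt of the most common one. Over the 8 main contigs, 25.3%, 47.5% and 43.1% of reads did so in the D0 libraries, 56.4%, 38.2% and 51.2% at D2, 72.1%, 73.7% and 54.7% at D4, and 68.2%, 43.8% and 55.6% at D6. D0 replicate 1 stood lowest of all 12 libraries, and every D4 library was above every D0 library. The median aligned length of all kept reads also ran from 649 nt in that library to 835 nt in D4 replicate 2. The part of read completeness in the abundance values was not tested. Without D0 replicate 1, the same number of members, 6, was called lower at D6.

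The genes lie on chromosomes 17 (Tcp1, plus strand, 12916382 to 12925067), 10 (Cct2, minus, 117051001 to 117063814), 3 (Cct3, plus, 88297116 to 88321767), 11 (Cct4, plus, 22990519 to 23003780), 15 (Cct5, minus, 31590800 to 31601804), 5 (Cct6a, plus, 129786998 to 129846371), 6 (Cct7, plus, 85451514 to 85468475) and 16 (Cct8, minus, 87483326 to 87495873), given for the contig with most reads in mm10. The main contigs each carried most of their gene's reads, from 78.4% in Tcp1 to 99.96% in Cct4. In Tcp1 a contig annotated as a retained intron took a further 15.4%, and 96.4% of its reads had a mapping quality below 10. The main Cct6a contig is annotated as a processed transcript. Of the 31-base words of the main Cct3 contig, 13.1% also occur in other annotated genes, foremost the pseudogene Cct3-ps1, as do 7.55% of those of Cct7, 3.5% of those of Cct4, 2.36% of those of Tcp1 and 0.104% of those of Cct2. Within their own genes, 99.9% of the Cct3 words and 79.1% of the Tcp1 words occur in other contigs of the gene. Cct5, Cct6a and Cct8 share none with other genes.

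Direct RNA reads start at the tail, so their 3′ ends mark where each mRNA was cleaved. Sites were collected from the mapped ends after the values had been seen. Cct2, Cct3, Cct4 and Cct7 each used 1 site for at least 95.1% of main contig reads. Tcp1, Cct5, Cct6a and Cct8 had more than 1 site with at least 3% of reads. The sequences of Cct8, whose distal site differed most between days, and of Tcp1 and Cct5 are shown because each site carries a canonical or common variant polyadenylation signal, set in capitals. They were taken from the GENCODE vM21 transcripts (GRCm38, the build called mm10), read 5′ to 3′ on the gene strand, and all lie downstream of the stop codon in the 3′ UTR.
Cct8 proximal, chr16:87483868-87483897, minus strand: gtacAATAAAtgtgttactgttatggccgt
Cct8 distal, chr16:87483329-87483358, minus strand: aataAATAAAcatgattttttttctgtcat
Tcp1 proximal, chr17:12924534-12924563, plus strand: tcacATTAAAgtacagcaagctgaccacct
Tcp1 distal, chr17:12925039-12925067, plus strand: cagaAATAAAtctgcctgcctttgcctct
Cct5 proximal, chr15:31590877-31590906, minus strand: actaAATAAAgggtgtgtctgttgtgctgc
Cct5 distal, chr15:31590809-31590838, minus strand: ctggAATAAAagcagctgtctggtaactgc

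The distal Cct8 site had its highest shares at D6. It took 7 of 250, 9 of 318 and 11 of 259 reads at the 2 sites in the D0 libraries, and 9 of 110, 11 of 149 and 16 of 121 at D6. As shares these were 2.8%, 2.83% and 4.25% at D0, against 8.18%, 7.38% and 13.2% at D6. All 3 D6 libraries were above all 3 D0 libraries. The D4 shares (5%, 5.11% and 6.58%) lay between, and the D2 shares (2.04%, 0.952% and 2.44%), which rest on 1, 1 and 2 reads, were the lowest. The difference from D0 to D6 was 6.30 points, with an exact permutation p of 0.1, the smallest possible, and 0.2 after adjustment over the 4 genes with more than 1 site. In reads of D6 the proximal site still held 344 against 36.

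In Cct6a, where no signal of these kinds was found at the proximal site, that site held 5.48%, 6.42% and 11.4% of site reads at D0 and 3.91%, 3.72% and 5.41% at D6. The highest D6 library was just below the lowest D0 library, and the exact permutation p was again 0.1, or 0.2 adjusted. Tcp1 and Cct5 gave exact permutation p-values of 0.4 and 1. In Tcp1 the sites other than the main one took 14.2% of site reads at D0 and 16.3% at D6, on average.

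**Figure D4:**
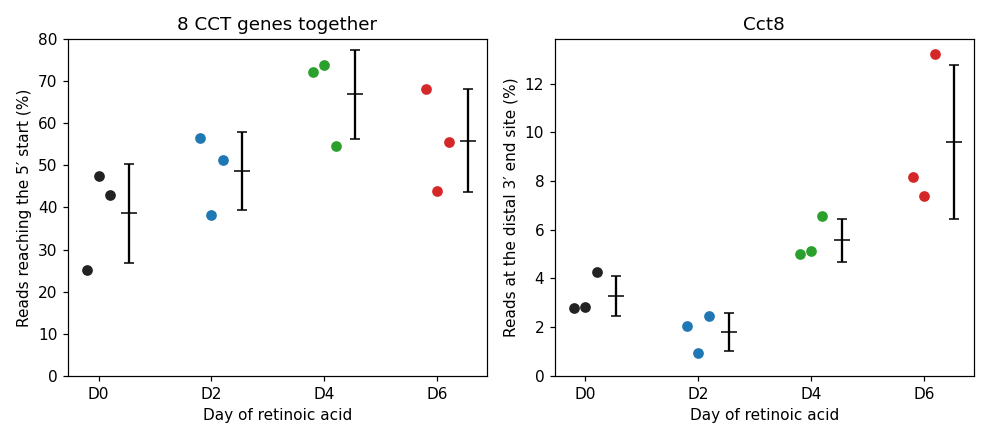
Left, share of reads of the 8 main contigs that reach the 5′ start; right, share of Cct8 reads that end at the distal 3′ site (y axes, percent) by day of retinoic acid (x axes). Points are libraries and bars the mean with SD (n = 3). Every D4 point lies above every D0 point on the left, and every D6 point above every D0 point on the right.

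The tails of the 8 mRNAs were of ordinary to short length. A median tail is the middle poly(A) length of a gene's reads in a library. At D0 it averaged from 87.5 ± 4.73 nt in Cct2 to 108 ± 3.46 nt in Cct8 (SD, n = 3). The median over 4205 genes with enough reads was 107 nt. All members but Cct8 lay at or below the 33.5th percentile at D0, and Cct2 and Cct5 were at the 4.57th and 5.26th.

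By limma with reads as weights, 0 of 8 members changed in median tail at D2, D4 or D6, against 2.07%, 3.19% and 5.49% of all genes tested. At an unadjusted p of at most 0.05 the counts were 1, 0 and 2 of 8, against 8.28%, 11.1% and 16.8% of genes. The share of tails of 30 to 90 nt also gave 0 of 8 on each day, against 2.4%, 3.14% and 3.57%, with 2, 0 and 1 members at an unadjusted p of at most 0.05, against 9.3%, 10.4% and 13.1%. The share under 30 nt gave 0 of 8 on each day by limma, against 0%, 0.856% and 1.52%, with 1, 1 and 0 members at an unadjusted p of at most 0.05, against 5.73%, 11.7% and 9.85%. Cct4 was the member in both counts, with shares under 30 nt of 4.36%, 4.28% and 2.69% in the D0 libraries, 6.06%, 9.94% and 10.1% at D2, 6.72%, 11.5% and 4.93% at D4 and 4.76%, 3.45% and 2.34% at D6. Its fitted difference was 5.45 points at D2 (SE 1.7, limma adjusted p = 0.64) and 4.3 points at D4 (SE 1.41, limma adjusted p = 0.28). The intervals were wide: 95% half-widths ran from 7.06 to 10.04 nt for the median tail at D6.

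Cct8 had the largest difference at D6. Its median tails were 104, 111 and 108 nt at D0 and 103, 88.5 and 90.4 nt at D6. All 3 D6 libraries were below all 3 D0 libraries. The fitted difference was -14.8 nt (SE 4.97, limma adjusted p = 0.074). With genes of at least 20 reads on average as the tested set it passed the threshold (limma adjusted p = 0.0432), and without D6 replicate 1 it did so too.

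Tcp1 was the member with the largest difference at D2. Its median tails were 98.5, 95.8 and 100.2 nt at D0 and 83.3, 80.6 and 89.6 nt at D2, and 93.4, 96.5 and 100.4 nt at D4. The D2 libraries stood below D0, and the D4 libraries overlapped it. The fitted D2 difference was -13.8 nt (SE 4.2, limma adjusted p = 0.093), where the median difference over all genes tested was -2.93 nt. Cct7 had median tails of 92.8, 94.8 and 99.04 nt at D0 and 106, 107 and 101 nt at D6, a fitted difference of 8.97 nt (SE 4.24, limma adjusted p = 0.27), beside a median of 4.2 nt over all genes tested at D6. All 3 Cct7 libraries of D6 were above those of D0. For Cct8, Tcp1 and Cct7 alike, the share of all genes tested with non-overlapping tail libraries was not computed.

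**Figure D5:**
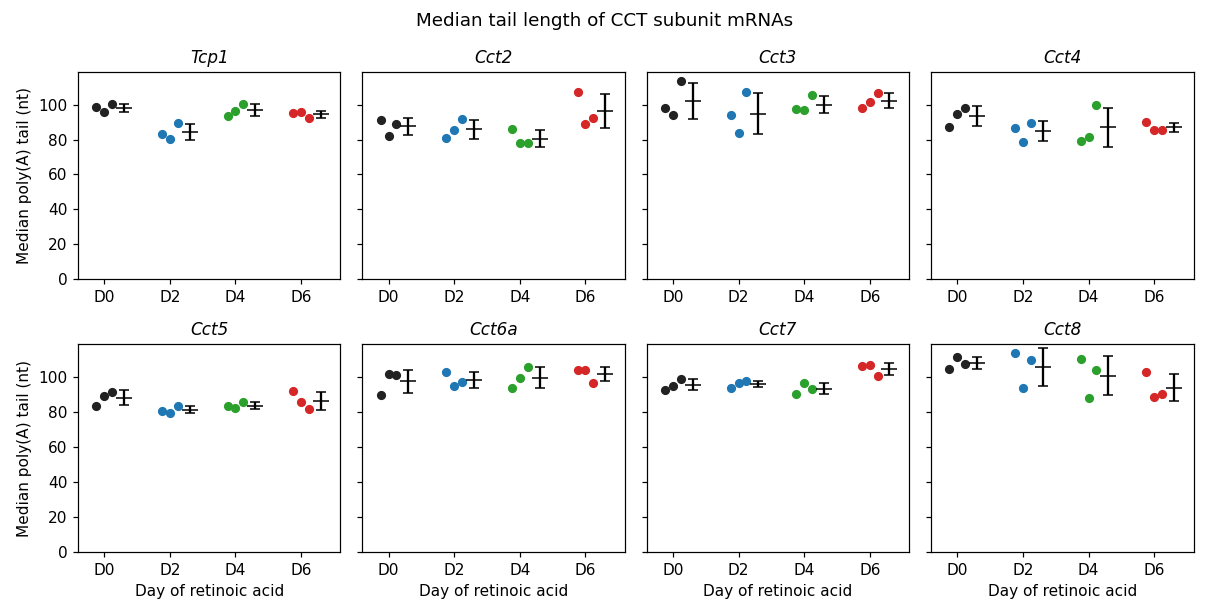
Median poly(A) tail in nucleotides (y axis) of each subunit mRNA by day of retinoic acid (x axis). Points are libraries and bars the mean with SD (n = 3). Most days overlap; the Cct8 points are lower at D6, the Tcp1 points lower at D2 and the Cct7 points higher at D6 than at D0.

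The start sites were compared with the RefSeq promoter table (GRCm38.p6), which had 9 windows for 7 of the members and none for Cct4. The window used ran from 250 bases before to 50 bases after each start. GGGCGG, a GC box, was present on either strand in 8 of 9 windows and in all 7 genes, against 35.7% of 32851 windows of all genes. CCAAT was in 4 of 9, against 37.4%. GAANNTTC, a paired heat-shock unit, was in 1, an alternative Cct2 start, against 7.86%, and CACGTG in none, against 7.15%. No listed start was a C opening a run of at least 5 pyrimidines, the form of a terminal oligopyrimidine start, which 2.51% of windows had. Cct8 is shown because its start (chr16:87495845-87495874, minus strand) opens such a run of 5 with T in place of C, set in capitals: gcccaTTCCCagcaggcagtgcgcggcgcc. In the reads, the most common start lay from 24 to 148 bases past the nearest listed start in 6 of the genes, and 557 bases past it in Cct7.

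The partners and substrates of CCT are given beside the 19.4% of all genes called higher and 18.2% called lower at D6. Of 10 partners, all tested, 4 rose and 1 fell by D6, and the median over the list was 0.32 on the log2 scale beside 0.02 over all genes. At D2 2 of the 10 were lower and 0 higher, against 6.32% and 4.48% of all genes, the prefoldin subunits Vbp1 (-0.80, adjusted p = 0.0141) and Pfdn4 (-0.85, 0.0194), and at D4 1 was lower, Pfdn4 (-0.68, 0.009), and 3 higher, against 12.7% and 12.6%. The prefoldin subunit gene Pfdn1 fell by 0.57 on the log2 scale (limma adjusted p = 0.0063), from 183 to 122 CPM, and Pfdn5, another prefoldin subunit, rose by 0.42 (0.008), from 276 to 368 CPM. Txndc9, a phosducin-like protein, rose by 0.53 (adjusted p = 0.0094) and Pdcd5, a CCT-binding protein, by 0.58 (0.012). Of 6 tubulin folding cofactors, all tested, 1 rose at D6, a share near that of all genes. Tbcb rose by 0.48 (adjusted p = 0.026), while Tbce (1.08, adjusted p = 0.066), Tbca (0.22, 0.22) and Arl2 (0.23, 0.39) did not pass there. At D2 1 of the 6 was higher, Arl2 (0.83, adjusted p = 0.0046), against 4.48% of all genes, and at D4 2 were, Arl2 (0.60, 0.0137) and Tbce (1.26, 0.0392), against 12.6%.

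Of 14 actin and tubulin genes, all tested, 5 rose and 6 fell at D6, against 19.4% and 18.2% of all genes. Tubb2b rose from 258 to 1669 CPM, a log2 fold change of 2.69 (adjusted p = 1.1e-29), Tuba1a from 2499 to 6616 CPM (1.39, 1.6e-26) and the neuronal Tubb3 from 140.4 to 915 CPM (2.67, 7.7e-25). Tuba1b fell from 2827 to 1746 CPM (-0.71, 4.1e-11). At D2 5 of the 14 were lower and 0 higher, against 6.32% and 4.48% of all genes. Tuba1a (-0.94, adjusted p = 6.1e-11) and Tubb3 (-1.09, 0.0046) were lower at D2 and higher at D6. The sum over the 14 genes was 13834 to 14186 CPM in the D0 libraries, 11096 to 11789 at D2, 14949 to 16312 at D4 and 17859 to 20610 at D6. Of 11 other substrates, 2 rose and 2 fell at D6, shares near those of all genes. Vhl, the von Hippel-Lindau protein, rose by 1.12 (adjusted p = 0.0014) and the G protein subunit Gnb2 by 0.58 (0.0012), and Plk1, a mitotic kinase, fell by 1.08 (8.5e-05) and Ccne1, cyclin E1, by 1.03 (0.0065).

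The mitochondrial chaperonin also fell. Hspd1 fell by 1.15 on the log2 scale (adjusted p = 8.4e-11), from 698 to 310.4 CPM, and its co-chaperonin Hspe1 by 0.96 (1.1e-10), from 1107 to 576 CPM. The difference from the CCT genes was not tested. Of the other related genes tested, Bbs12 (0.24, adjusted p = 0.8) and Mkks (0.06, 0.92) did not pass, and Cct6b had 2 reads and Bbs10 20, too few to test.

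Of 10 proliferation genes 9 fell at D6, against 18.2% of all genes, with Mcm6 by 1.26 on the log2 scale (adjusted p = 6.6e-10), Mcm3 by 1.01 (8.9e-07), Mcm5 by 0.85 (1.4e-05) and Mcm2 by 0.92 (2.5e-04), all parts of the replicative helicase. How far cell division bears on the CCT values was not tested. At D2, where 4 CCT genes were lower, 3 of the 10 were higher and none lower, against 4.48% and 6.32% of all genes. At D4, where 6 CCT genes were lower, 4 of the 10 were lower and none higher, against 12.7% and 12.6%. The summed level of the 10 was 2771 to 2903 CPM at D0, 3332 to 3462 at D2, 2501 to 2733 at D4 and 1789 to 1957 at D6. In bulk RNA, fewer cells of a type and less RNA per cell cannot be told apart.

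The genes whose levels ran most like the CCT genes over the 12 libraries were found by correlation. Among 2788 genes with at least 20 reads per library on average, the highest Pearson correlations with the mean standardized log2 level of the 8 members were 0.96 for Serbp1, 0.94 for Eif4b, 0.94 for Prps1, 0.93 for Eef1a1, 0.93 for Rpl22l1 and 0.93 for Rpl7a. Eif4b encodes a translation initiation factor, Eef1a1 an elongation factor, Rpl7a a ribosomal protein and Prps1 a nucleotide synthesis enzyme. Of the 2788 genes, 40 had a correlation above 0.9. The points share the day, the library and its depth, so these values are a description. Serbp1 averaged 1054 CPM at D0 and 436 at D6, and Eif4b 395 and 152.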

How the data were processed

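Poly(A) RNA of P19 cells was read by nanopore direct RNA sequencing in 12 libraries, 3 biological replicates for each of 4 days. The p-values measure the spread between biological replicates of a day. The authors pooled the replicates of a day by barcode, so that spread leaves out differences between runs of different days. After base calling in Guppy, the authors mapped reads onto annotated transcripts (mm10; minimap2 2.20, per the submitters' processing notes), assigned barcodes with Deeplexicon and estimated each read's tail length in nucleotides with Nanopolish. The deposited table also holds a mapping quality score and a barcode confidence as a fraction. A second deposited table holds the authors' log2 fold changes and adjusted p-values and was not used. Here, reads tagged PASS, of mRNA class, from nuclear-encoded genes and outside pseudogenes were tallied per gene and library (120326 to 613756 reads). They were scaled by trimmed mean of M-values and tested with limma 3.58.1 (voom, R 4.3.3) for 9309 genes with at least 30 reads. All 12 libraries were in 1 fit with day as the factor and Benjamini-Hochberg adjustment. The fold change is in log2 CPM with 0.5 reads added. Tails were tested with limma, weighted by reads, for 4205 genes with a mean of at least 10 reads and at least 3 in each library. Subunit shares and 3′ end use were compared by exact permutation test. Confidence intervals are 95% intervals of the fit, and levels are limited by counting error at these depths. Methods were tested on simulated data. Alternatives covered scaling, filters, mapping quality, contigs, barcode confidence, depth, the replicate block and leaving out each library. Replicate number n is barcode n in every day; deviations of same-numbered libraries correlated from -0.15 to 0.38 and exceeded 0.1 in 9 of 18 pairs. They exceeded 0.1 in all 3 pairs of D4 with D6 only, and in 7 of 36 differently numbered pairs. By this cut, applied to these same data, the numbers were treated as pairs in that comparison and in no other. No label states a pairing, and an effect of the shared barcode cannot be told apart from it. The named genes were all 8 members, the 4 genes with lowest adjusted p at D6 in each list, and the 6 most alike genes; members and lists were chosen with earlier results of these data known. The markers named (Pou5f1, Map2, Vim, Fabp7, Nes, Pax6 and Sox1) were chosen after their values were seen. So were Vbp1 and Pfdn4, the 3′ end sites and the 5′ end measure.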

Additional observations from a re-analysis of the deposited data

How the results depend on the processing

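The D6 count of members called lower was 6 to 7 in every alternative. At D2 it was 4 and became 0 with library totals, 0 with upper quartile factors and 0 after thinning to the smallest library, and 1 to 6 when 1 library was left out (1 without D0 replicate 2 or without D2 replicate 2). At D4 it was 6 and became 3 after thinning, 4 with upper quartile factors, 5 with library totals and with 1 contig per gene, 4 without D0 replicate 2 or without D4 replicate 3, and 1 member, Cct3, was called higher with a mapping quality of at least 10. Library totals moved the median log2 fold change of all genes to 0.13 (D2), 0.12 (D4) and 0.26 (D6). Of the genes called, 34.1%, 37.5% and 31% were then lower at D2, D4 and D6, against 58.5%, 50.3% and 48.3%. At D2 this share was 47.4% with upper quartile factors and 44.02% with no filter.

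Counts of genes called moved as follows, the cause not tested. At D2, 588 were lower and 417 higher; with library totals 373 were lower and 720 higher, with no filter 904 were higher, with a mapping quality of at least 10 220 were higher, and after thinning 169 were lower and 134 higher. Leaving out 1 D0 or D2 library gave 316 to 501 lower at D2. At D4 (1185 lower, 1171 higher), limma-trend gave 777 lower, mapping quality 769 higher, and thinning 322 lower and 320 higher. At D6 (1690 lower, 1809 higher), mapping quality gave 1026 higher and thinning 663 lower and 551 higher. Thinning uses fewer reads. For median tails at D6, 231 genes became 129 without weights, and Cct8 was called (1 member of 8) with a mean of at least 20 reads; leaving out 1 library gave 0 to 1 members at D6 and 29 to 105 genes at D2 (87 with all). For tails under 30 nt at D6, 64 genes became 39 without weights, 41 with mapping quality, 22 with limits of 25 and 95 nt, 35 with libraries of the 2 days only, and 29 to 53 when 1 library was left out.

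Direction changed as follows, in log2 for abundance. Cct6a at D2 was 0.12 with library totals and 0.0060 with upper quartile factors. With a mapping quality of at least 10, Tcp1 at D4 was 0.053, Cct3 at D4 was 0.59 and at D6 0.25. Cct3 was 0.061 at D4 and 0.080 at D6 with library totals, and 0.018 at D4 after thinning. Leaving out 1 library gave -0.00747 to 0.13 for Cct3 and -0.15 to 0.00195 for Cct6a at D2. Shares of CCT reads at D6 (points): Cct5 was -0.00299 per contig length, -0.685 with mapping quality and -0.294 to 0.723 leaving out 1 library and Tcp1 was 2.05 with mapping quality. The Cct4 share kept its direction and moved from -2.27 to -3.31 points with mapping quality.

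Median tails (nt) changed direction only in values that never passed. At D2 Cct2 was 0.506 with the replicate block and 0.0767 with mapping quality, Cct6a 0.85 without weights and 0.692 with a barcode confidence of at least 0.75, and Cct7 -1.03 with that confidence. At D4 Tcp1 was 1.10 with mapping quality and Cct3 3.67 with that confidence. At D6 Cct3 was -4.87 with mapping quality, -0.636 with 1 contig and -0.121 with that confidence. Leaving out 1 library gave at D2 -3.44 to 1.72 for Cct2, -14.8 to 1.28 for Cct3, -4.18 to 1.93 for Cct6a, -0.181 to 2.43 for Cct7 and -7.76 to 3.37 for Cct8; at D4 -2.46 to 0.537 for Tcp1, -5.58 to 4.38 for Cct3 and -0.823 to 5.29 for Cct6a; and at D6 -3.47 to 6.49 for Cct3.

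Tail shares at D6 (points), none called: for 30 to 90 nt, Tcp1 was -0.0721 with mapping quality and Cct3 -0.494 with limits of 25 and 95 nt, and leaving out 1 library gave -1.46 to 1.83 for Cct3 and -2.63 to 3.68 for Cct5. Under 30 nt, Tcp1 was -0.192 with limits of 25 and 95 nt and -0.388 with 35 and 85 nt, Cct2 0.142, Cct3 0.676 and Cct7 -0.122 with 35 and 85 nt, Cct4 0.43 with 25 and 95 nt and Cct3 0.457 with mapping quality; leaving out 1 library gave -0.533 to 1.32 for Tcp1, -2.46 to 1.04 for Cct2, -1.41 to 0.743 for Cct3, -0.908 to 0.11 for Cct4, -1.32 to 3.28 for Cct5 and -0.704 to 1.52 for Cct7.

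From D2 to D4 (95 lower, 187 higher), 157 genes were lower with no filter, 165 with any quality tag and 40 after thinning, with 90 higher; leaving out a D2 or D4 library gave 94 to 203 higher. From D4 to D6 (365 lower, 413 higher), limma-trend gave 130 higher, mapping quality 209 lower and 185 higher, 1 contig 271 higher, thinning 128 lower and 79 higher, and leaving out a D4 or D6 library 186 to 361 higher; 1 member, Tcp1, was called lower with any quality tag. The alternatives for these 2 comparisons were chosen after seeing the data.

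With the replicate block, 5, 6 and 6 members were called lower at D2, D4 and D6 and 0 in median tail; 597, 1006 and 1516 genes were lower. Cct2 was then called at D2 (-0.37, limma adjusted p = 0.0447), and no other member changed its call. From D4 to D6, where all 3 same-numbered pairs correlated above 0.1, the block gave 0 members, with 345 genes lower and 286 higher, or 377 and 300 in the D4 and D6 libraries alone.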
